A study of Mus musculus with 12 samples.

Results

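The histone cluster genes are the genes whose symbols begin with Hist1h, Hist2h, Hist3h or Hist4h, and 70 of the 41128 genes in the expression table belong to them. They were picked by symbol alone, and their values did not enter the choice. Spleens of mice of the strain C57BL/6J, 6 to 8 weeks of age, gave RNA for 12 libraries, 3 in each of 4 groups: resting B cells lacking CD43 from females, the same cells from males, naive CD4+CD62L+ T cells from females, and those from males. No group carried a transgene or received a treatment per the labels. Each library came from pooled mice, so a p-value below measures the spread between pools. The libraries were made from total RNA depleted of ribosomal RNA with a strand-specific kit, which does not select for poly(A). The deposited value is named adjusted TPM. TPM is a length-corrected share of transcripts, and what the adjustment did is not given in the sources used here. Read depth is unknown, so precision was taken from the lower and upper bounds deposited with each value.

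The labels of both cell types were borne out by their markers. All 4 B cell markers, such as Cd79a and Pax5, passed as higher in B libraries, and all 5 T cell markers, such as Cd3e and Cd4, as higher in T libraries. Summed B cell markers ran from 2220.4 to 2643 in B and from 0.896 to 4.91 in T libraries, and summed T cell markers from 1017 to 1194 in T and from 9.76 to 14.1 in B libraries. Totals of adjusted TPM ran from 561020 to 1453940 per library, in which the noncoding RNA Yam1 alone took 14179 to 543238. Male B cell 3, female B cell 1 and both T cell libraries numbered 6 were low in their histone levels, as described with the values by library.

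Histones are the proteins around which DNA is wound. H2A, H2B, H3 and H4 form the core of the nucleosome, and the linker histone H1 binds the DNA between cores. Most genes for the replication-dependent histones lie in clusters, have no introns and are strongly expressed while a cell copies its DNA. Their messages usually end not in a poly(A) tail but in a conserved stem-loop, which is bound by the stem-loop binding protein SLBP and which governs processing, translation and decay of the message. Some of these genes also make longer, polyadenylated transcripts, chiefly in cells that have left the cycle. Resting B cells and naive T cells are mostly outside the cell cycle.

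Of the 70 genes, 56 lay in the Hist1 cluster on mouse chromosome 13, 10 in Hist2 on chromosome 3 and 3 in Hist3 on chromosome 11, while Hist4h4 on chromosome 6 was the single Hist4 gene. By product, 6 encoded H1, 20 H2A, 19 H2B, 12 H3 and 13 H4, with 3 noncoding copies (Hist1h2aj, Hist1h2al and Hist3h2bb-ps) counted with the class of their symbol. Coordinates are of GRCm38 from GENCODE M21.

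The stem-loop was searched for first, because it is the feature by which histone messages differ from other messages. The pattern GGNNNTNTNNANNNCC on the sense strand was found within 150 bases after the last coding base in 42 of 67 coding members, against 282 of 31010 other coding transcripts (0.909%). Of the 25 coding members without a match, 19 had an annotation that ended under 60 bases after the last coding base, so that the window was nearly empty, and 6 had a longer annotation. The 42 matches took 6 forms, and one example of each is printed in the sense orientation with the stem-loop in capitals and the flanking bases in lower case.
Hist1h1c (H1, chr13:23739507-23739532, + strand): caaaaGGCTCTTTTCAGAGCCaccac
Hist1h3c (H3, chr13:23745042-23745067, - strand): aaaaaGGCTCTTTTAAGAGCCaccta
Hist2h2ac (H2A, chr3:96220413-96220438, - strand): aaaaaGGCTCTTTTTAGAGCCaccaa
Hist1h4c (H4, chr13:23698084-23698109, - strand): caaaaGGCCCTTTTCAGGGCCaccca
Hist2h4 (H4, chr3:96262934-96262959, - strand): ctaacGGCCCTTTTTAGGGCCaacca
Hist1h4b (H4, chr13:23757361-23757386, + strand): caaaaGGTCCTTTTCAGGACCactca
The form of Hist1h1c was shared by 24 members of the H1, H2A, H2B and H3 classes, and that of Hist1h3c by 6. The form of Hist1h4c was found in 7 genes, all of the H4 class, which also held the forms of Hist2h4 (2 genes) and Hist1h4b (2 genes). The form of Hist2h2ac occurred in that gene alone.

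Messages of the histone clusters were present in both cell types, at a higher sum in B cells. Their summed adjusted TPM per library was lowest at 2344, median 3619 and highest at 4059 in the 6 B libraries, and lowest at 1346, median 1911 and highest at 2285 in the 6 T libraries. The groups did not overlap, and the mean of B cells, 3410.3 ± 659 (SD, n = 6), was 1.88 times that of T cells, 1817 ± 385 (SD, n = 6). In a bulk sample, fewer cells that express a gene and less RNA per cell cannot be told apart. H1 messages made up 25.9% of the B cell sum and 29.5% of the T cell sum, although only 6 genes encode them. H2B took 19.2% of the sum in B and 12.6% in T cells, and H4 took 26.2% and 33.9%.

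The classes differed in how far the cell types lay apart. Summed H2B was 657 ± 140 (SD, n = 6) in B and 226 ± 32.0 (SD, n = 6) in T cells, and summed H3 was 465 ± 115 and 175 ± 49.9. In both classes every B library lay above every T library. Summed H2A was 522 ± 104 and 262 ± 49.6, again without overlap. For H1 the lowest B library, at 641, lay below the highest T library, at 736, and for H4 the lowest B library, at 644, lay below the highest T library, at 727. The ratio of means was 2.91 for H2B, 2.65 for H3, 1.99 for H2A, 1.61 for H1 and 1.46 for H4.

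**Figure D1:**
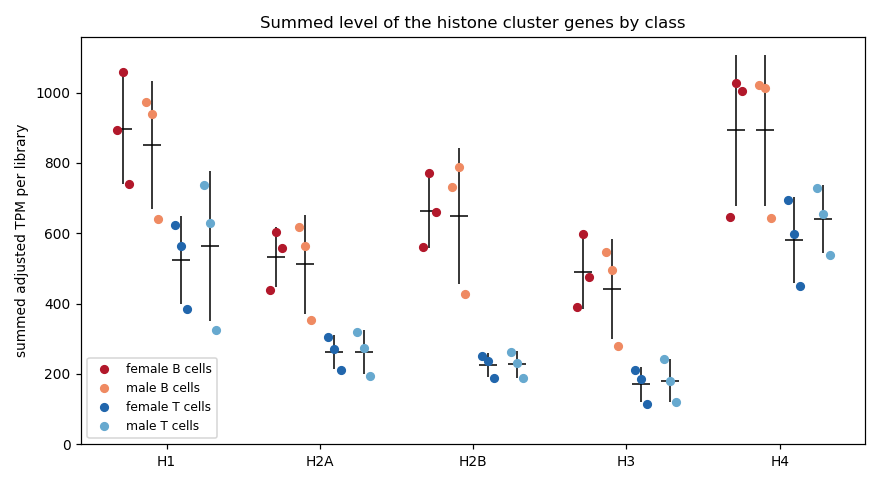
Summed adjusted TPM of the histone cluster genes in each library (vertical axis, linear) for the 5 classes of histone (horizontal axis). Points are libraries, 3 in each group, and black marks are the group mean ± SD; the B and T cell libraries are separate for H2A, H2B and H3, and overlap for H1 and H4.

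The comparison of B with T cells asked which single genes lay behind these sums. Genes with at least 1 adjusted TPM in at least 3 libraries were tested with limma on log2(adjusted TPM + 1), which left 64 of the 70 members among 12520 genes. Of these 64, 50 were higher in B and 4 in T cells at an adjusted p under 0.05, and 10 did not pass. This fit treated the 6 T libraries as independent, although those of the same number deviated together. With the same-numbered T libraries averaged and counted as 1 sample, 49 members were higher in B and 3 in T cells, and the calls lost were those of Hist1h4h (adjusted p = 0.085) and Hist2h2be (adjusted p = 0.056). Among all genes tested, 31.4% were higher in B and 41.6% higher in T cells, 73.0% in either direction. The median log2 fold change of the members, B over T, was 1.44, against -0.088 over all genes tested. All 6 B libraries lay above all 6 T libraries for 39 of the 64 members, against 24.2% of all genes, and the reverse held for 0 members, against 29.7%. A log2 fold change of at least 1 with an adjusted p under 0.05 was found for 39 members, against 11.8% of all genes.

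**Figure D2:**
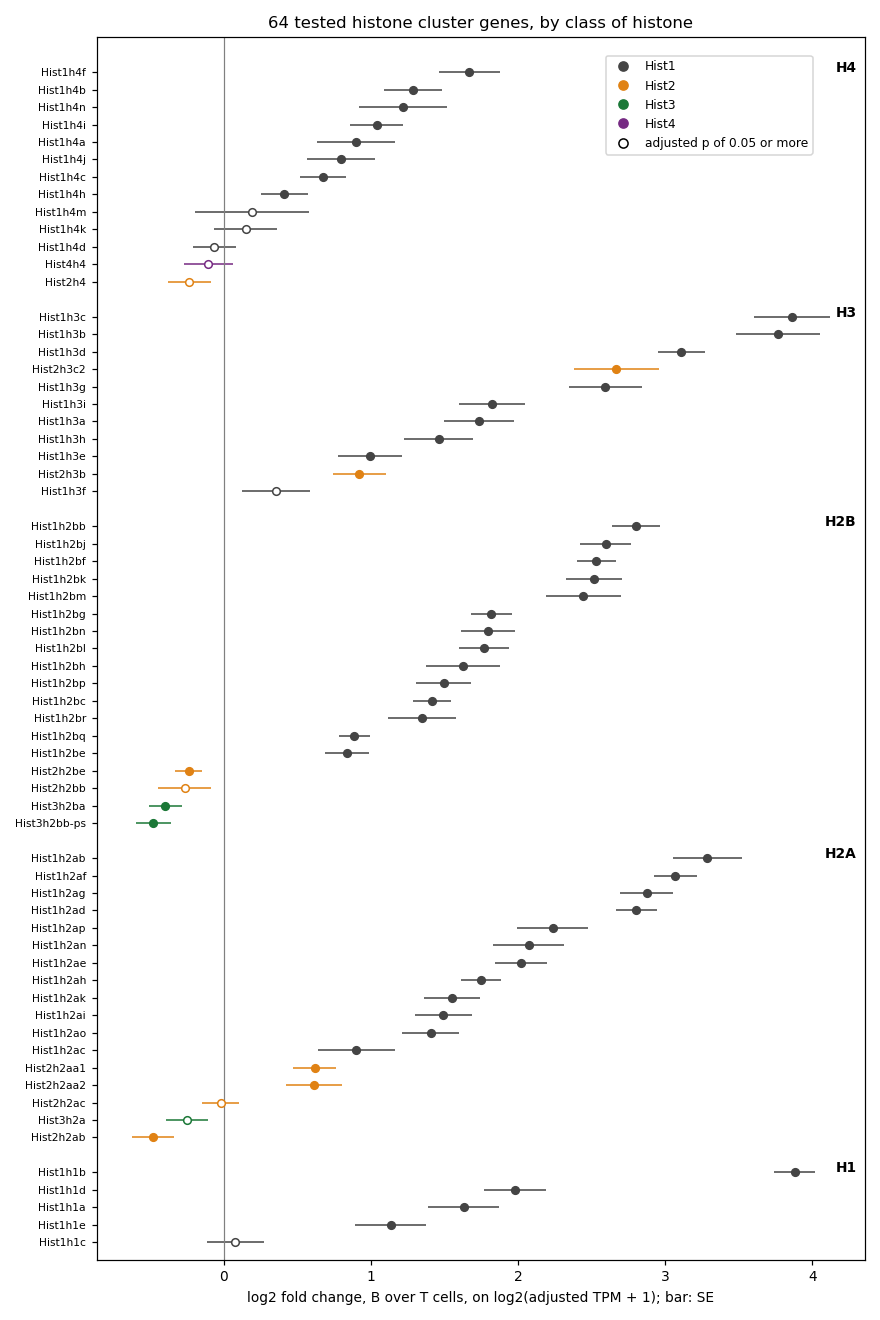
Log2 fold change of B over T cells on log2(adjusted TPM + 1) (horizontal axis) with its SE for each of the 64 tested genes, grouped by class of histone and coloured by cluster. Filled points have an adjusted p under 0.05; the 4 filled points left of 0 belong to Hist2 and Hist3, and the largest changes belong to Hist1h1b, Hist1h3c and Hist1h3b.

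The linker histones covered the whole range, from no detectable difference to the largest log2 fold change of any tested member. Hist1h1b had an adjusted TPM of 31.5 at the lowest, 40.8 at the median and 51.9 at the highest in B cells. The same values in T cells were 1.37, 1.80 and 2.81. Its log2 fold change was 3.88 ± 0.14 (SE; adjusted p = 2.8e-11). This was the largest log2 fold change among the tested members on log2(adjusted TPM + 1). By the ratio of mean adjusted TPM, Hist1h3b at 27.8 and Hist1h3c at 23.7 stood above Hist1h1b at 22.0. Hist1h1d ran from 134 to 211 in B and from 23.5 to 57.9 in T cells (B over T on the log2 scale 1.98 ± 0.21 (SE), adjusted p = 2.1e-06). Hist1h1a ran from 13.4 to 28.1 in B and from 3.75 to 9.50 in T cells (1.63 ± 0.24, adjusted p = 4.9e-05), and Hist1h1e from 179 to 307 and from 63.1 to 170.4 (1.13 ± 0.24, adjusted p = 0.001). All 4 genes showed no overlap between the cell types. Hist1h1c, the most abundant of all 70 members, did not follow them. Its values were 283, 392 and 460.1 (lowest, median, highest) in B and 234, 395 and 499 in T cells, and its log2 fold change of 0.080 ± 0.19 (SE) did not pass (adjusted p = 0.72). The sixth linker gene, Hist1h1t, which encodes a testis form, stayed at or below 0.234 in all libraries and was not tested.

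Among the H3 genes, 10 of 11 tested were higher in B cells and 1 did not pass. Hist1h3c ran from 17.8 over a median of 39.2 to 46.0 in B cells and from 0.715 over 1.11 to 2.89 in T cells (B over T on the log2 scale 3.86 ± 0.26 (SE), adjusted p = 2.2e-08). Hist1h3b ran from 10.6 over 30.2 to 34.2 in B and from 0.221 over 0.722 to 1.97 in T cells (3.77 ± 0.28, adjusted p = 7.4e-08). Hist1h3d (3.11 ± 0.16, adjusted p = 1.3e-09) followed, and Hist2h3c2, at 4.33 to 17.5 in B and 0.396 to 1.29 in T cells, was the largest change outside Hist1 (2.67 ± 0.29, adjusted p = 2.6e-06). Several T cell values of these genes were below 1, where the added 1 makes the fold change smaller than the ratio of the values. For Hist2h3c2, 62.6% of all 75-base windows also occur in the entry Gm20634, so its reads could have been split. The same holds for Hist1h3b, with 58.6% of windows found in other genes. The exception in the class was Hist1h3f, an abundant gene at 46.6 to 99.2 in B and 35.2 to 83.9 in T cells (0.36 ± 0.23, adjusted p = 0.18).

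Of 17 H2A genes tested, 14 were higher in B cells, 1 was higher in T cells and 2 did not pass. Of 18 H2B genes, 14 were higher in B cells, 3 were higher in T cells and 1 did not pass. Hist1h2ab ran from 13.6 over a median of 32.9 to 37.7 in B and from 1.42 over 1.66 to 2.77 in T cells (B over T on the log2 scale 3.29 ± 0.24 (SE), adjusted p = 4.6e-08). Hist1h2af (3.07 ± 0.15), Hist1h2ag (2.87 ± 0.18) and Hist1h2ad (2.80 ± 0.14) came next among the H2A genes, each with an adjusted p of 9.9e-09 or below. Of the 75-base windows, 55.4% of Hist1h2ab, 70.5% of Hist1h2af, 77.6% of Hist1h2ag and 65.5% of Hist1h2ad also occur in other genes. The reads of these genes could have been split, so their order is uncertain. The largest change of an H2B gene was that of Hist1h2bb, at 43.6 to 82.6 in B and 7.54 to 10.0 in T cells (2.80 ± 0.16, adjusted p = 5.1e-09). The most abundant H2B gene was Hist1h2bg, at 114 to 203 in B and 37.7 to 55.2 in T cells (1.82 ± 0.14, adjusted p = 7.8e-08). The abundant H2A gene Hist2h2aa1 ran from 112 to 182 in B and from 74.2 to 119.6 in T cells, so that the groups overlapped (0.62 ± 0.14, adjusted p = 0.0019).

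The H4 genes had the lowest median log2 fold change of the 5 classes, 0.68 over 13 tested, against 1.55 for H2A, 1.56 for H2B, 1.63 for H1 and 1.82 for H3. Of the 13, 8 were higher in B cells and 5 did not pass. The highest-expressed H4 gene, Hist1h4c, ran from 174 over a median of 241 to 264 in B and from 102 over 145 to 177 in T cells (0.68 ± 0.15 (SE), adjusted p = 0.0017). Hist1h4d overlapped widely, at 104 to 171 in B and 116 to 173 in T cells (-0.064 ± 0.15, adjusted p = 0.71). Hist1h4h passed (0.41 ± 0.16, adjusted p = 0.034), but its call was lost in 7 of the 12 fits that each left out a library, among them that without female B cell 2 (0.36, adjusted p = 0.078). The largest H4 change was that of Hist1h4f (1.67 ± 0.21, adjusted p = 1.1e-05).

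The Hist1 cluster was then counted apart from the others. In Hist1, 46 of 51 tested genes were higher in B and 0 higher in T cells, with a median log2 fold change of 1.63. In Hist2, Hist3 and Hist4 together, 4 of 13 tested genes were higher in B cells, 4 were higher in T cells and 5 did not pass, with a median of -0.23. Summed Hist1 was 3006 ± 587 (SD, n = 6) in B and 1496 ± 329 in T cells, a ratio of 2.01, whereas the other clusters summed to 404 ± 75.3 and 321 ± 55.8, a ratio of 1.26. The other clusters thus made up 11.9% of the histone sum in B and 17.8% in T cells.

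The 4 genes higher in T cells had moderate levels and overlapped between the cell types. Hist2h2ab ran from 2.35 over a median of 3.54 to 3.94 in B and from 3.82 over 4.87 to 6.96 in T cells (B over T on the log2 scale -0.48 ± 0.14 (SE), adjusted p = 0.0085). The noncoding copy Hist3h2bb-ps ran from 3.66 to 6.90 in B and from 6.60 to 8.79 in T cells (-0.48 ± 0.12, adjusted p = 0.0027), and its neighbour Hist3h2ba from 5.24 to 7.74 and from 6.59 to 11.0 (-0.40 ± 0.11, adjusted p = 0.0068). Hist2h2be, an H2B gene with a long annotated message, ran from 5.71 to 7.20 and from 6.29 to 9.50 (-0.24 ± 0.090, adjusted p = 0.03), and lost its call in 7 of the 12 fits that each left out a library. Hist4h4, at 9.57 to 17.1 in B and 9.38 to 16.3 in T cells, did not pass (-0.10 ± 0.17, adjusted p = 0.58). These small differences depended on the scale. When every library was rescaled to a total of 1000000, which moved the median log2 fold change of all genes from -0.088 to 0.26, none of the 4 was called, Hist2h2be turned to 0.099, and the members numbered 53 higher in B and 0 higher in T cells. On that scale the calls among all genes were 71.6% higher in B cells, against 43.0% as deposited. With median-ratio scaling, by contrast, 50 members were higher in B and 3 higher in T cells. Hist2h2ab, Hist3h2ba and Hist3h2bb-ps kept their calls there, and Hist2h2be lost its call. Of 2 further genes, Hist2h4 passed as higher in T cells once female B cell 2 was left out (-0.34, adjusted p = 0.033), and Hist3h2a once male T cell 6 was left out (-0.37, adjusted p = 0.017).

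The annotated end of the message was then set beside the fold change. Members were split by whether the annotation runs at most 100 bases past the stem-loop or further. The 21 tested members with a short end had a median log2 fold change of 1.73, and 19 of them were higher in B cells. The 19 tested members annotated over 100 bases past the stem-loop had a median of 0.84, with 12 higher in B cells, 1 higher in T cells and 6 not past the threshold. The ranges overlapped widely, from -0.020 to 3.86 for short and from -0.40 to 3.11 for long ends. Within Hist1 alone the medians were 2.37 over 18 and 0.95 over 14 genes. The transcript versions in the table differ from those of M21 for 23 of the 70 members, and over the members with equal versions the medians were 1.67 (17 genes) and 0.44 (8 genes). The 17 tested members whose annotation stops under 60 bases after the coding sequence could not be placed, and had a median of 1.63. An annotated end says nothing of which ends were present in these cells, and the difference between the sets was not tested.

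**Figure D3:**
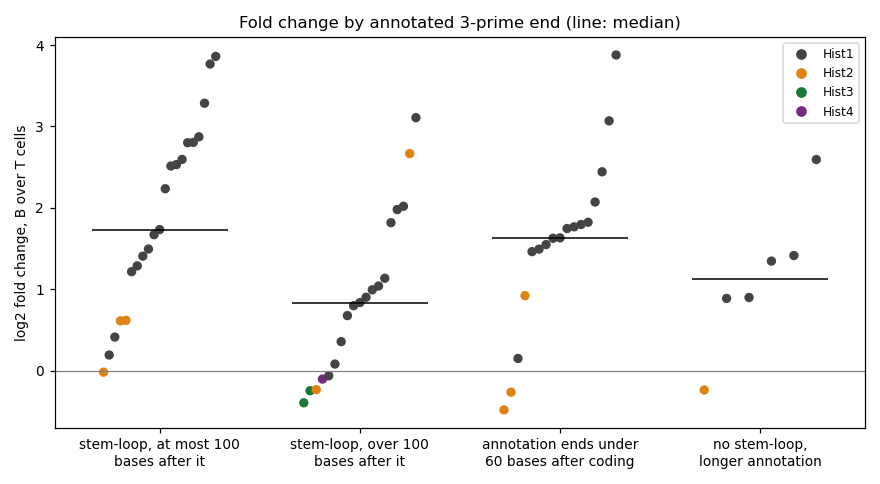
Log2 fold change of B over T cells on log2(adjusted TPM + 1) (vertical axis) for the 63 tested coding members by their annotated 3′ end (horizontal axis). Points are genes coloured by cluster and lines are medians; the short stem-loop ends have a median of 1.73 and the long ones 0.84, with overlapping ranges.

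Many H2A and H2B genes lie head to head and share the stretch between their starts. Divergent pairs with starts at most 1000 bases apart numbered 15, with starts 173 to 306 bases apart, and 14 had both genes tested. In 12 of the 14 pairs both genes were higher in B cells, and the median absolute difference between the log2 fold changes of the genes of a pair was 0.27, from 0.20 to 0.89. Hist1h2ao and Hist1h2ap each stood in 2 of these pairs, since overlapping H2B entries are listed at those places. In the pair of Hist1h2ae and Hist1h2bg, the log2 fold changes were 2.02 and 1.82 while their mean levels differed, at 18.5 and 168 adjusted TPM in B cells. In the Hist2 pair of Hist2h2ac and Hist2h2be neither was higher in B cells (-0.020 and -0.24), and in the Hist3 pair of Hist3h2bb-ps and Hist3h2a the values were -0.48 and -0.25. Whether the genes of a pair lay nearer to each other than unpaired genes do was not tested.

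Of the 70 members, 57 matched a RefSeq promoter of GRCm38.p6, from 250 bases before to 50 after the start. Motifs were counted on both strands. The octamer ATTTGCAT, known to bind octamer factors, was in 7 of 16 H2A and 5 of 14 H2B promoters and in 0 of 27 promoters of the other classes, against 1.74% of 32851 promoters. CCAAT, which binds the factor NF-Y, was in 48 of 57, against 37.4%, and was in every promoter of the other classes but in 3 of 12 H4 promoters. TATAAA was in 33 of 57, against 13.6%. AAACACA, known from H1 promoters, was in 4 of 5 H1 promoters and 3 of 52 promoters of the core histones, against 7.18%. In 3 stretches the matches to these motifs on either strand are given in capitals: that between a divergent pair that differed between the cell types, and the upstream bases of the linker genes with the largest and the smallest log2 fold change.
Hist1h2ae and Hist1h2bg (chr13:23571221-23571395, + strand): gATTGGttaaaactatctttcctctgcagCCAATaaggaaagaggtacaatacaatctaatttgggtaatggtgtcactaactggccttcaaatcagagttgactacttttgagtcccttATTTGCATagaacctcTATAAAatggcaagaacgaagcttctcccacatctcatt
Hist1h1b (chr13:21780626-21780775, - strand): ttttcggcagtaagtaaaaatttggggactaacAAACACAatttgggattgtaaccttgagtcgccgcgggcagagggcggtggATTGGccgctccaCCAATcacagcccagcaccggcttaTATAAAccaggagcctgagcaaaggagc
Hist1h1c (chr13:23738657-23738806, + strand): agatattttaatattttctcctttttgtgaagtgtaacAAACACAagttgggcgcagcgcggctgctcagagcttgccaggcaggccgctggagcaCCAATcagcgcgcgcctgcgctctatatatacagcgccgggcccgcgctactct
The promoters of Hist1h1b and Hist1h1c both held AAACACA and CCAAT, and TATAAA was matched in that of Hist1h1b but not in that of Hist1h1c. Their log2 fold changes were 3.88 and 0.080. The H2A genes with the octamer had a median log2 fold change of 1.32 (6 tested) and those without 2.07 (9 tested), and the H2B genes 2.17 (4 tested) and 1.49 (9 tested). These differences were not tested.

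Histone genes of a class are near copies, and reads can be hard to place among them. For 29 of the 64 tested members at least 50% of all 75-base windows of the annotated transcript occur in another gene as well, and 27 of them were higher in B cells. Of the 35 members under 50%, 23 were higher in B and 4 higher in T cells, and the medians were 1.77 and 0.90. The call of a single gene in the first set is uncertain, since its reads could have been split among copies. Across values from 10 to 100 adjusted TPM the median ratio of the upper to the lower bound was 1.22 for members and 1.14 for other genes, and across values from 1 to 10 it was 1.72 and 1.37. Among the tested members the widest was Hist1h2ah, with 90.0% of windows shared and a ratio of 5.13. Hist1h1b, with the largest log2 fold change, shared no window with another gene. It was 1 of 6 tested members without a shared window. Of these 6, 2 were higher in B and 1 higher in T cells, and their median log2 fold change was -0.169.

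Hist1h4m and Hist1h4n are neighbouring H4 entries whose shares of their sum differed between libraries. Hist1h4m shared 89.0% and Hist1h4n 83.4% of windows with other genes, chiefly with each other. Hist1h4m stood at 27.9 in female B cell 3 and at 134.8 in female B cell 2, where Hist1h4n stood at 219.7 and 89.5. Each gene had a coefficient of variation of 49.0% and 48.1% over the B libraries, while their sum had 25.1%. Over the T libraries the coefficients were 39.7% for Hist1h4m, 14.8% for Hist1h4n and 17.7% for the sum. The sum ran from 139 to 263 in B and from 79.5 to 143 in T cells. Alone, Hist1h4m did not pass (log2 fold change 0.19 ± 0.39 (SE), adjusted p = 0.67) and Hist1h4n did (1.22 ± 0.30, adjusted p = 0.0027). Hist1h3h and Hist1h3i had coefficients of 25.4% and 30.0% over the B libraries, near the 26.7% of their sum. Hist2h2aa1 and Hist2h2aa2, both also overlapped by a read-through gene, had similar ratios of B to T means, at 1.53 and 1.59.

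**Figure D4:**
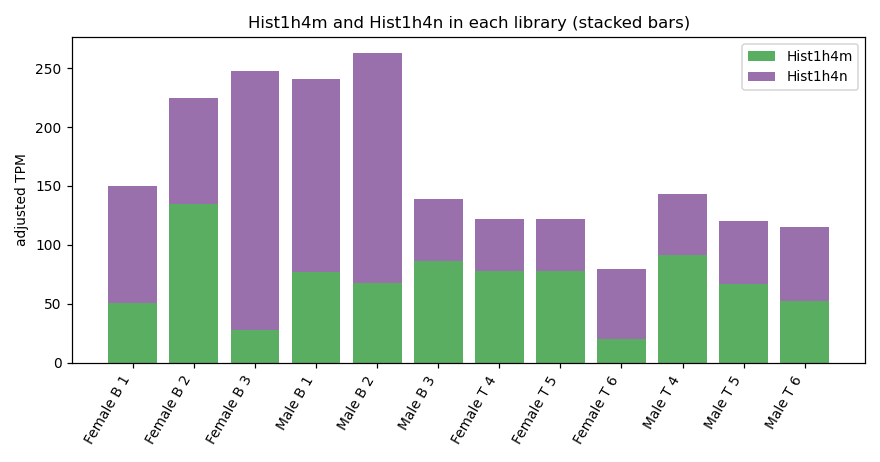
Adjusted TPM (vertical axis, stacked bars) of Hist1h4m and Hist1h4n in each of the 12 libraries (horizontal axis). The split between the genes moves from 27.9 and 219.7 in female B cell 3 to 134.8 and 89.5 in female B cell 2, while the B cell sums stay between 139 and 263.

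Libraries of one cell type differed in their histone levels in a direction that many but not all members shared. Male B cell 3 was the lowest of the 6 B libraries for 53 of 64 tested members (82.8%), against 13.8% of all tested genes, and it and female B cell 1 both lay below the other 4 for 48 of 64, against 9.34% of all tested genes. Female B cell 2 was the highest for 35 (54.7%), against 18.1%. Among the T libraries, male T cell 6 was the lowest for 28 members (43.8%), against 17.1%, and female T cell 6 for 20 (31.2%), against 27.4%. Both lay below the other 4 T libraries for 35 (54.7%), against 18.6%. They lay above the other 4 for 5 members (7.81%), against 17.0%, namely Hist1h2bb, Hist1h3b, Hist1h3c, Hist1h4b and Hist1h4n. Hist1h4n shares most windows with Hist1h4m, and the sum of the pair went the other way. That sum was 79.5 and 114.7 in the T libraries numbered 6 and 119.9 to 142.8 in the other 4. Male T cell 4 was the highest for 33 (51.6%), against 20.4%. In the B libraries the summed level of 13 genes of G2 and mitosis went the same way, at 39.9 in male B cell 3, 50.2 in female B cell 1 and 67.1 to 86.7 in the other 4. In the T libraries it went the other way: it was 10.1 and 9.96 in the libraries numbered 6 and 7.18 to 7.62 in the other 4. The summed level of 24 genes of DNA replication and S phase was low in the same libraries as the histones in both cell types. It was 325 in male B cell 3, 336 in female B cell 1 and 362 to 400 in the other 4 B libraries. Among the T libraries it was 317 and 325 in those numbered 6 and 342 to 395 in the other 4. The largest part of this T cell sum was Pcna, at 127 and 123 in those numbered 6 and 140 to 182 in the other 4. Not every gene of the list went this way. Tk1 stood at 2.09 and 1.37 in those numbered 6 and at 0.993 to 1.24 in the other 4. Summed germinal centre markers were 25.3 to 47.6 in B libraries, lowest in female B cell 3 and highest in female B cell 2. Male B cell 3 stood at 33.2. Most of this sum was Bcl6, at 19.8 to 34.8, which did not follow the histone levels. Bcl6 was lowest in female B cell 3 and stood at 30.9 in male B cell 3 and 27.3 in female B cell 1. The other 3 markers, Mybl1, Gcsam and S1pr2, were lowest in male B cell 3 (1.06, 0.646 and 0.53), next lowest in female B cell 1 (2.50, 1.31 and 0.798) and highest in female B cell 2 (5.18, 4.69 and 3.02). Between the cell types S1pr2 did not pass (B over T -0.257, adjusted p = 0.25 by limma). What part cells in cycle or of the germinal centre had in the histone levels was not tested. Without male B cell 3, female T cell 6 and male T cell 6, which were picked for their low histone sums, 49 members were higher in B and 7 higher in T cells. With female B cell 1 left out as well, the counts were 50 and 6, among 12297 genes of which 8718 passed.

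**Figure D5:**
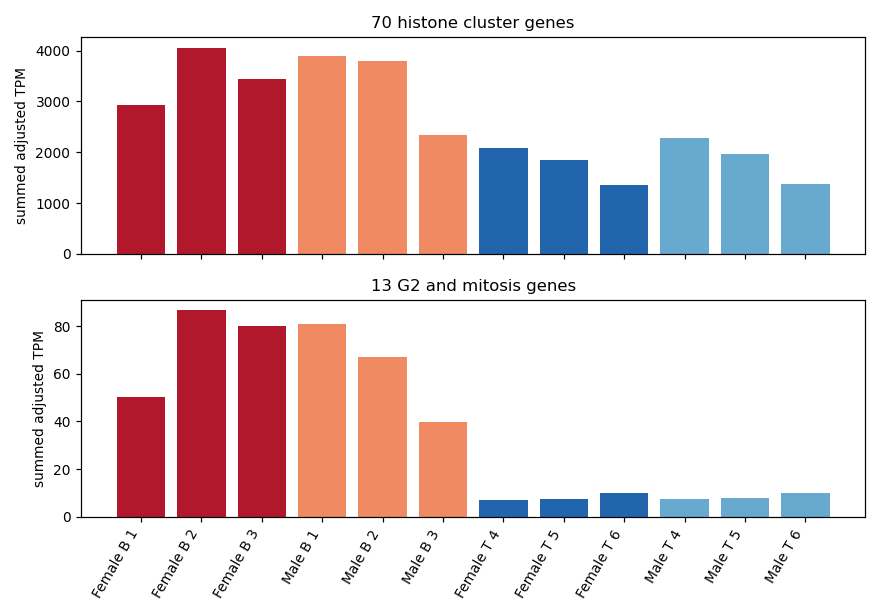
Summed adjusted TPM per library (vertical axes, linear) of the 70 histone cluster genes above and of 13 genes of G2 and mitosis below, coloured by group. Male B cell 3 is the lowest B library in both, at 2344 and 39.9, whereas the T libraries numbered 6 are the lowest T libraries above and the highest below.

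The sexes were set against each other inside each cell type, and no member passed. In B cells, limma called 0 of 64 members, with 1 at an unadjusted p under 0.05, and in T cells 0, with 0 at an unadjusted p under 0.05, against 0.144% and 0.104% of all genes called. The log2 differences, female minus male, had a median of 0.088 and ran from -0.40 to 0.70 in B cells, and had a median of -0.014 and ran from -0.46 to 0.45 in T cells. Their median SE was 0.27, so a difference of that order was not detectable with 3 libraries a group. The smallest p in B cells was that of Hist1h2ao, at 4.70, 9.35 and 8.97 in females and 4.99, 5.31 and 2.60 in males (log2 difference 0.70, adjusted p = 1.0 by limma). In T cells it was that of Hist1h2ae, at 4.94, 4.29 and 4.26 in females and 4.35, 3.19 and 1.90 in males (0.45, adjusted p = 1.0 by limma). Both genes overlapped between the sexes. In B cells 0 members had sexes that did not overlap, against 7.2% of all genes, and in T cells 1 did, against 8.49%, namely Hist1h2ah, which stood at or below 0.466 in all T libraries and was named after its values were seen. The difference between the sex effects of the cell types passed for 0 members by limma, with 0 at an unadjusted p under 0.05, and for 0.0% of all genes. Its smallest p was that of Hist2h2aa2 (adjusted p = 1.0).

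Genes that act on or with these histones were taken from lists that were set with earlier results of these data known. Of 16 tested genes for the processing and decay of histone messages, 2 were higher in B cells, 8 higher in T cells and 6 did not pass, with a median log2 fold change of -0.15. Slbp, which encodes the stem-loop binding protein, ran from 48.6 over a median of 51.4 to 55.9 in B and from 34.6 over 38.8 to 40.5 in T cells (0.44 ± 0.058 (SE), adjusted p = 1.6e-05). Cpsf2, a part of the cleavage complex, was the other (1.08 ± 0.059, adjusted p = 2.8e-09). Ncbp1, of the cap-binding complex (-0.64 ± 0.059), and Lsm11, of the U7 particle that guides the cleavage (-0.57 ± 0.064), were higher in T cells, each with an adjusted p of 4.1e-06 or below. The counts in this list depended on the scale: with libraries rescaled to 1000000 they were 2 and 0, and with median-ratio scaling 2 and 7.

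Histone genes outside the clusters, most of which make replacement variants throughout the cycle, were divided. Of 9 tested, 3 were higher in B cells, 4 higher in T cells and 2 did not pass. H3f3a, which encodes a replacement H3, ran from 896 over a median of 945 to 1089.9 in B and from 358 over 405 to 488 in T cells (B over T on the log2 scale 1.18 ± 0.10 (SE), adjusted p = 1.6e-07), while H3f3b, which makes the same protein, did not pass (-0.040 ± 0.15, adjusted p = 0.82). H2afx, whose product marks DNA breaks when phosphorylated, was higher in B cells (0.85 ± 0.13, adjusted p = 7.5e-05). The linker gene H1f0, typical of cells outside the cycle, ran from 0.984 to 1.92 in B and from 6.50 to 11.6 in T cells (-1.98 ± 0.13, adjusted p = 1.8e-08), opposite to 4 of the 5 tested cluster H1 genes. With rescaled libraries the list numbered 3 higher in B and 1 higher in T cells, and with median-ratio scaling 3 and 4.

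Of 17 histone chaperones, which carry histones to and from DNA, 4 were higher in B and 7 higher in T cells. The counts were 7 and 3 with rescaled libraries, and 7 and 7 with median-ratio scaling. Chaf1a, of the complex that deposits histones on new DNA, ran from 1.88 to 2.78 in B and from 0.172 to 0.345 in T cells (B over T on the log2 scale 1.39 ± 0.078 (SE), adjusted p = 3.2e-09), and Chaf1b, its partner, went the other way (-0.78 ± 0.078, adjusted p = 1.2e-06). Nap1l1, a carrier of H2A and H2B, was higher in B cells (1.07 ± 0.068, adjusted p = 1.4e-08) and its relative Nap1l4 higher in T cells (-0.89 ± 0.055, adjusted p = 9.4e-09).

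Genes of DNA replication and S phase were mostly higher in B cells, with 17 of 24 higher in B, 5 higher in T and 2 not past the threshold, and a median log2 fold change of 0.66. Tk1, a thymidine kinase, ran from 12.4 to 18.0 in B and from 0.993 to 2.09 in T cells (2.84 ± 0.11 (SE), adjusted p = 9.8e-11), and Uhrf1, which helps to copy DNA methylation, was higher by 2.21 ± 0.14 (adjusted p = 9.7e-09). Pcna, the replication clamp, was higher in T cells, at 123 to 182 against 74.2 to 101 in B cells (-0.72 ± 0.11, adjusted p = 5.3e-05). With rescaled libraries 19 were higher in B and 0 higher in T cells, and with median-ratio scaling 19 and 3. All 13 genes of G2 and mitosis were higher in B cells, with a median of 1.71, and Mki67, the marker of cycling cells, ran from 5.98 over a median of 11.3 to 14.8 in B and from 0.210 over 0.313 to 0.993 in T cells (2.99 ± 0.18, adjusted p = 8.8e-09). Cells in cycle and their share in the histone levels were not measured apart.

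Markers of other cells were counted beside these results. Of the germinal centre markers reported, 3 of 4 were higher in B cells, with Mybl1 at 1.06 to 5.18 in B and 0.170 to 0.353 in T cells. Of the plasma cell markers 2 were higher in B and 1 higher in T cells, and Jchain was not analysed here. Summed erythroid markers ran from 4.36 to 346 in B and from 3.78 to 77.9 in T libraries, and 1 of 4 tested was higher in B cells. Summed myeloid markers ran from 9.22 to 13.8 in B and from 1.10 to 4.66 in T libraries, with 2 of 2 tested higher in B cells. Of the CD8 T cell markers 1 was higher in each cell type. The natural killer cell markers stayed at or below 0.584 and none was tested. The part of these cells in the histone levels was not tested.

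The 6 members that were not tested had values under 1 in every library. Hist1h2aa and Hist1h2ba, known from testis, stayed at or below 0.00133 and 0.0348, and Hist2h3c1 at or below 0.00775. The noncoding copies Hist1h2aj and Hist1h2al ran up to 0.544 and 0.422. For these 5 genes the median ratio of the upper to the lower bound was 6.12 or more, so their levels have little precision. In addition, 100% of the 75-base windows of Hist2h3c1 occur in the entry Gm20634, so its reads could have been placed there.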

How the data were processed

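RNA was sequenced in 12 libraries, 3 for each sex of resting B and of naive T cells, and groups were taken from the labels. Each value deposited by the authors is a signal named adjusted TPM, with a lower and an upper bound of an interval. Per the submitters' processing notes, Trim Galore, FastQC, STAR and the build mm10 were used. How values were quantified and adjusted, and what level the interval has, is not given in the sources used here. The deposited signal is not a read count and gives no depth, so no count test was run, although the design had named one. Some label fields call the material genomic DNA, and the values were treated as RNA, as the protocol describes.

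Members were matched to GENCODE M21 (68 by gene ID and 2 by transcript ID), and 5 carry another symbol there. Genes with at least 1 adjusted TPM in at least 3 libraries were tested on log2(adjusted TPM + 1) with limma (version 3.58.1, R 4.3.3), with 1 coefficient for each group, a mean-variance trend and Benjamini-Hochberg adjustment over all genes tested. The added 1 makes fold changes of low genes smaller than the ratio of their values. Every adjusted p is from limma. The fit was tested on simulated data with independent noise in every library, so this test does not cover libraries that deviate together. Alternatives changed the pseudocount (0.1), the filter, the scaling (rescaled to 1000000, median ratio), the bound used, the trend and the libraries. After the data were seen, fits without libraries low in histone levels, and with same-numbered T libraries averaged, were added. Tables used Python 3.11.15 with pandas 2.3.3, and plots matplotlib 3.10.9.

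Same-numbered libraries of both sexes were checked for pairing by the correlation of their deviations from the group means, which was 0.721, 0.548 and 0.521 for T cell numbers 4, 5 and 6 and -0.169, -0.038 and -0.337 for B cell numbers 1, 2 and 3. Same-numbered T libraries therefore deviated together, and same-numbered B libraries did not. The sample titles name no pairing, and why the T libraries deviated together was not tested.

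The members were picked by symbol alone, but this rule and the gene lists were set with earlier results of these data known. Members named are the 10 largest changes in each direction past the threshold, the 10 highest mean levels, every H1 gene, the member with the smallest p of each sex contrast, and Hist4h4, which the study ties to a variably methylated retrotransposon. From the lists, 2 to 4 of the largest changes are given. Hist1h4f, Hist1h3h, Hist1h3i, Hist1h4m, H3f3b, Chaf1b and other genes outside this rule were named after their values were seen. Proteins and ERCC spike-ins were not analysed here. One germinal centre marker was left out of its list and is not reported.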

Additional observations from a re-analysis of the deposited data

How the results depend on the processing

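For B against T cells, the count of histone cluster genes past the threshold was 54 and ran from 52 to 54 when a library was left out (49 to 50 higher in B and 3 to 5 higher in T cells), and over all genes it was 9134 and ran from 8686 to 9164. The count higher in T cells moved from 4 to 0 with libraries rescaled to 1000000 and to 7 without male B cell 3, female T cell 6 and male T cell 6 together, an alternative chosen after seeing the data. With median-ratio scaling that count was 3. Without a filter, which tests 41128 genes, 24591 genes passed, and 2 members passed for sex in B cells, 2 in T cells and 3 for the difference between the sex effects; these were Hist1h2ba, Hist1h2aa and Hist2h3c1, all at or below 0.0348 adjusted TPM. The mean histone sum of B cells moved from 3410.3 to 4749.9 with rescaled libraries; leaving out a library gave 3281 to 3624 for B and 1724 to 1912 for T cells. In all, 9 tested members changed direction under some alternative, none of them past the threshold there. Rescaling left 3 members below 0 in place of 10, and turned Hist2h2ac (0.36), Hist3h2a (0.12), Hist2h4 (0.12), Hist2h2bb (0.11), Hist2h2be (0.099), Hist4h4 (0.25) and Hist1h4d (0.32). Hist2h2ac was also above 0 with median-ratio scaling (0.065) and in 5 fits that left out a library. Hist1h4m, at 0.19, fell to -0.11 without female B cell 2, -0.13 without female T cell 6 and -0.27 without the 3 libraries. Other changes were those of Hist1h4d (0.022 with median-ratio scaling, -0.14 to 0.041 with a library left out, above 0 without female B cell 1, male B cell 3 or female T cell 4, 0.038 without the 3 libraries and female B cell 1) and Hist1h1c (-0.079 to 0.19 with a library left out, below 0 without female or male T cell 6, -0.088 without the 3 libraries, -0.084 without them and female B cell 1). The cause was not tested. With the replicate block, 0 members passed for sex in B cells, 0 in T cells and 0 for the difference, as without it. The block thus changed no call in the T cells, where same-numbered libraries deviated together. It was fitted for the sex contrasts alone, since B and T libraries share no number; averaging same-numbered T libraries, chosen after seeing the data, left 52 members past the threshold of 54. Leaving out a library also gave 0 in each. The pooled mice and the unknown depth limit precision, and with 3 libraries a group small sex differences could not be detected. Reads shared among copies limit single genes more than sums.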
